A study of Homo sapiens with 4 samples.

Results

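The 10 genes described here encode inflammatory chemokines and cytokines whose transcription is driven by NF-kappaB. They are CXCL1, CXCL2, CXCL3, CXCL8, CXCL10, CCL2, CCL5, CCL20, IL6 and IL1B, 10 of 18334 genes measured, and they were read by 39 of 45220 array features. A feature was assigned to a gene where the platform annotation names exactly 1 gene, and the features of a gene were averaged. The genes were chosen with their log ratios already known. In particular, CXCL3 had been noted for a small positive ratio that hardly differed between arrays. Their ratios are therefore given as a description, and where limma calls among them are counted, the share over all genes stands beside the count and nothing is read from it.

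The samples were HEK293T cells, a human embryonic kidney line carrying the SV40 large T antigen. One RNA came from cells that had received a plasmid encoding a siRNA against CHD6, a chromatin remodeler, and the other from cells given a plasmid with a control siRNA, both collected 48 h after transfection. Each of 4 arrays held both RNAs. The CHD6 siRNA RNA was in Cy3 on replicates 1 and 3 and in Hy5 on replicates 2 and 4. Values are log2 ratios of CHD6 siRNA over control, where base 2 is assumed and the direction is likely rather than settled. No label states whether the replicates were separate cultures, nor what share of the cells took up a plasmid. In bulk RNA, fewer expressing cells and less transcript per cell cannot be told apart. CHD6 itself averaged -0.45 ± 0.15 (SD, n = 4) over its 3 features, a value that was also used to read the direction. Feature 27564 gave -1.15 ± 0.24 (SD, n = 4), and the other features averaged -0.015 and -0.17.

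Chemokines are small secreted proteins that guide leucocytes along a gradient. CXCL1, CXCL2, CXCL3 and CXCL8 attract neutrophils through CXCR2, CXCL10 attracts activated T cells through CXCR3, and CCL2, CCL5 and CCL20 attract monocytes, T cells and dendritic cells. IL-6 and IL-1β are cytokines that set off fever and the acute phase response. At rest NF-kappaB is held in the cytoplasm by inhibitor proteins. Once freed, it binds short kappaB sites, which in many such genes lie close to the gene start. HEK293T cells are often used to study the pathway with added stimuli; none was given here according to the labels.

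The promoters show what the genes share in sequence. RefSeq promoter windows (GRCh38.p14, from 250 bases before to 50 after the gene start) matched 8 of the 10 genes, all except CCL2 and CCL5. A kappaB-type motif, GGNNTTTCC, was searched on both strands. It was found in 7 of 8, the exception being IL1B, against 6.26% of 27305 promoters in the table. A longer form with 1 more G at its 5′ end, each match of which contains the shorter one, was found in 5 of 8 (CXCL1, CXCL2, CXCL3, CCL20 and IL6) against 1.92%. The genes were picked as driven by NF-kappaB, and the promoters of CXCL1, CXCL2 and CXCL3 are closely related. Both counts are therefore a description and not a test. Stretches of 50 bases follow, in the direction of the gene, with matches to the shorter motif in capitals. In CXCL10 and CCL20 the match lies on the opposite strand.
CXCL1 (chr4:73869301-73869350, + strand): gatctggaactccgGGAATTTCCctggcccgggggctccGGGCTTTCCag
CXCL3 (chr4:74038732-74038781, - strand): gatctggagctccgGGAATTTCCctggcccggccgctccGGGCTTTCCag
CXCL2 (chr4:74099237-74099286, - strand): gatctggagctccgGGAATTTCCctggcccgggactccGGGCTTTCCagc
CXCL8 (chr4:73740464-73740513, + strand): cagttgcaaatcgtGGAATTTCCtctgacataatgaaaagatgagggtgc
CXCL10 (chr4:76023638-76023687, - strand): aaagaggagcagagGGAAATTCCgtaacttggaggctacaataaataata
CCL20 (chr2:227813749-227813798, + strand): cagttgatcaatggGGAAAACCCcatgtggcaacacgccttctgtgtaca
IL6 (chr7:22727114-22727163, + strand): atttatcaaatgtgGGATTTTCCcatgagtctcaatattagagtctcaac

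CXCL1, CXCL2 and CXCL3 carried the same pair of matches. The longer motif began 79, 78 and 79 bases before the gene start, and GGGCTTTCC began 53 bases before it in all 3. Over the whole 300-base window these 3 promoters were 72.1% to 82.5% identical in pairwise global alignment, against 41.9% to 49.4% for the other 25 pairs. CXCL8 held its match 91 bases before the start. It was also the 1 gene of the 8 with the AP-1 motif TGANTCA (7.76% of all promoters). TATAAA was found in CXCL8 and CCL20, against 12.0% of all promoters. A match describes letters in a window and is not a site shown to be bound. CXCL1, CXCL2, CXCL3 and CXCL8 lie in 1 gene cluster on chromosome 4. Probe sequences were not used here, so whether a feature for 1 of the closely related CXCL genes also reads another was not tested.

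Across the 10 genes the ratios were small. The mean log ratio over 4 arrays lay between -0.12 (CCL5) and 0.19 (CXCL3), which is 92.0% to 114% of control. It was above 0 for 9 of the 10, against 49.1% of all genes, and the median was 0.069 against -0.0025 for all genes. The spread of mean ratios over all genes was 0.12 (SD). No member was among the 4 genes that limma called with a dye coefficient in the fit (0.0218% of 18334 genes), nor was any called with the intercept alone (0.00%). At an unadjusted p under 0.05 the count was 2, CXCL3 and CXCL1, both higher, against 9.37% of all genes in either direction and 4.97% higher, and 0 with the intercept alone (1.32%). The genes were chosen on this contrast.

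Of the 10, 5 were above 0 on all 4 arrays (CXCL1, CXCL3, CXCL10, CCL2 and IL6) and 0 were below 0 on all 4. Over all genes the shares were 3.55% and 3.49%. This too is a description of genes picked for such values. In the order of their means, none of the 9 neighbouring pairs differed by more than the SD of their difference over the arrays. The outermost pair, CXCL3 and CCL5, differed by 0.31 ± 0.16 (SD, n = 4), with CXCL3 higher on 4 of 4 arrays. That pair was picked as the highest and lowest of the 10 by these same values. Sorting by mean also brings neighbours close, so neither comparison is a test.

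**Figure D1:**
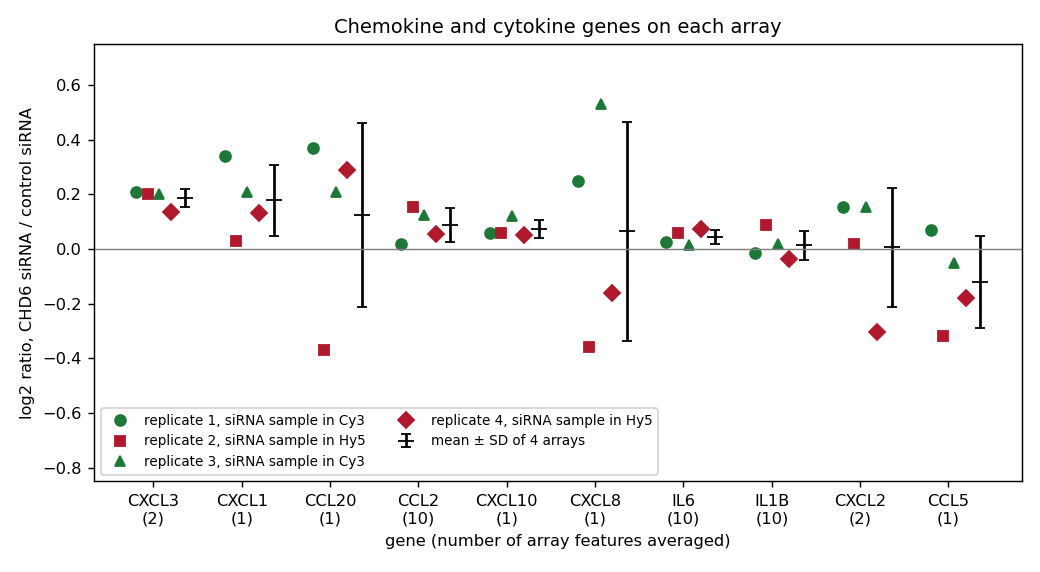
Log2 ratio of CHD6 siRNA over control (vertical axis) for each of the 10 genes, ordered by mean, with 1 symbol per array coloured by the dye of the siRNA sample and a bar for mean ± SD of 4 arrays. The arrays lie close together for CXCL3, CXCL10, CCL2, IL6 and IL1B (SD of 0.026 to 0.062), while CXCL8 and CCL20 spread from -0.36 and -0.37 up to 0.53 and 0.37.

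Among the neutrophil-attracting chemokines, CXCL1 was read by 1 feature, with ratios of 0.34, 0.03, 0.21 and 0.13 on replicates 1 to 4. All 4 were above 0, the 2 with the siRNA RNA in Cy3 were the higher ones, and the mean was 0.18 ± 0.13 (SD, n = 4), or 1.13-fold. CXCL8, the main neutrophil chemokine of human tissues, was also read by 1 feature, at 0.25, -0.36, 0.53 and -0.16. Its sign followed the dye of the siRNA RNA, and the values of the 2 orientations did not overlap. The mean of 0.065 ± 0.40 (SD, n = 4) was far smaller than the spread.

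CXCL3, which shares most of its sequence with CXCL1 and CXCL2, had gene means of 0.21, 0.20, 0.20 and 0.135. The mean was 0.19 ± 0.03 (SD, n = 4), or 1.14-fold, and 0.796% of all genes had a smaller SD. CXCL3 had been noted for this steadiness, so the share is a description. Its 2 features did not share that steadiness. Feature 7750 read 0.33, 0.12, 0.70 and -0.13. Feature 11329 read 0.09, 0.28, -0.30 and 0.40. The first was higher on the arrays with the siRNA RNA in Cy3 and the second on those with it in Hy5, and averaging them cancelled these deviations. Their own SDs over the arrays were 0.35 and 0.31, against 0.034 for the gene mean, and neither had 1 sign on all 4 arrays. Given so steady a mean, features that vary at all must run against each other. Both features are annotated to the same transcript.

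CXCL2 showed the same kind of disagreement. Feature 206 read 0.22, -0.43, 0.38 and -0.82, and feature 27837 read 0.09, 0.47, -0.07 and 0.21. The gene mean came to 0.155, 0.02, 0.155 and -0.305, with an average of 0.0063 ± 0.22 (SD, n = 4). Here the averages of the 2 features differed in sign, at -0.16 and 0.18.

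The dye coefficients of the 2 CXCL3 features differed by 0.48. CXCL3 was chosen for a steady mean, which favours such a difference, so it is given with no test. For CXCL2, whether its features respond differently to dye was tested after these values were seen, with limma, on the difference between features for all 5242 genes with exactly 2. The dye coefficients of the CXCL2 features differed by 0.63 (adjusted p = 0.00586). Such a difference was called for 37.9% of these genes, so it is common on these arrays. CXCL2 did not pass without moderation of the variances (limma adjusted p = 0.105). It passed without replicate 1 (adjusted p = 0.0393) and not without any other replicate (0.0543 to 0.0708). The difference in mean ratio between its features, 0.34, did not pass (limma adjusted p = 0.994, unadjusted 0.0186, 0.00% of genes called). In 40.4% of the 5242 genes the 2 dye coefficients had opposite signs, as they had in CXCL2 and CXCL3.

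**Figure D2:**
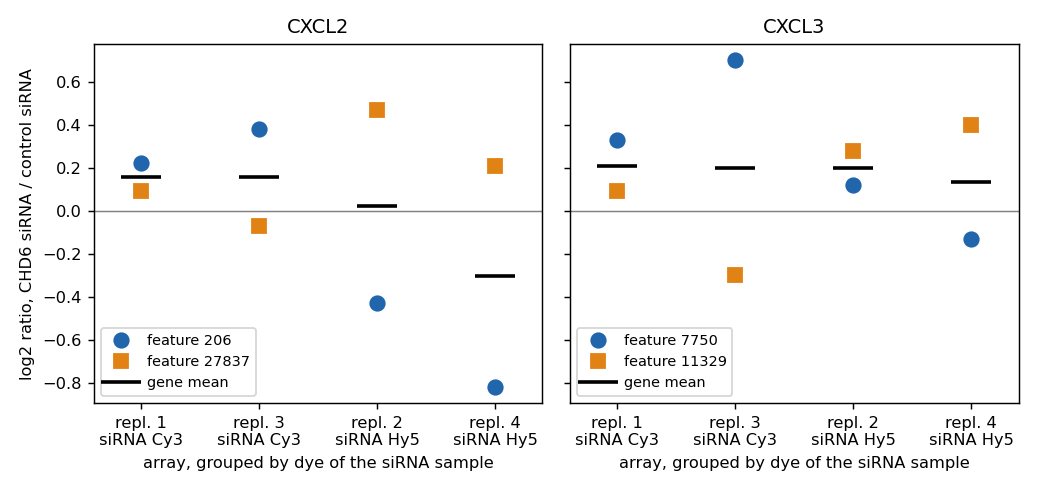
Log2 ratio (vertical axis) of each of the 2 features of CXCL2 (left) and CXCL3 (right) on the 4 arrays, grouped by the dye of the siRNA sample, with a black bar for the gene mean. For CXCL3 the bar stays between 0.135 and 0.21 while feature 7750 runs from -0.13 to 0.70 and feature 11329 from -0.30 to 0.40.

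Of all 18334 genes, 147 had an SD over the arrays no larger than that of CXCL3. Of these, 3, CXCL3 included, also had a mean at least as high, and 6 a mean at least as large in either direction. Among the 5242 genes with 2 features, 41 had an SD this small. In 4 of these both features varied at least as much as the steadier CXCL3 feature. CXCL3 had been noted for these very traits, so the counts only describe it. The 5 genes nearest to CXCL3 by Euclidean distance over the 4 arrays were MTM1 (distance 0.073), PCDHB17P (0.075), ID1 (0.081), H2BC9 (0.087) and DNAH10 (0.091). Their means lay between 0.17 and 0.20. Likeness over 4 arrays is weak and says nothing of shared control.

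CXCL10, the T cell chemokine that also responds to interferon, was read by 1 feature, at 0.06, 0.06, 0.12 and 0.05. The values lay close together and above 0, with a mean of 0.073 ± 0.032 (SD, n = 4). Unlike CXCL3, this small spread came from a single feature, and 0.665% of all genes had a smaller SD.

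Among the CC chemokines, CCL5 was the lowest member. Its single feature read 0.07, -0.32, -0.05 and -0.18, a mean of -0.12 ± 0.17 (SD, n = 4), below 0 on 3 of 4 arrays. CCL20, which attracts CCR6-bearing cells to epithelia, read 0.37, -0.37, 0.21 and 0.29, a mean of 0.13 ± 0.34 (SD, n = 4). Replicate 2 alone was below 0, and without it the mean was 0.29.

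CCL2, the monocyte chemokine, and the cytokine genes IL6 and IL1B were each read by 10 features annotated to 1 transcript, which may carry 1 probe sequence. The gene means of CCL2 were 0.018, 0.152, 0.123 and 0.053, or 0.087 ± 0.062 (SD, n = 4). Those of IL6 were 0.027, 0.057, 0.016 and 0.073, or 0.043 ± 0.026 (SD, n = 4). Those of IL1B were -0.016, 0.086, 0.018 and -0.035, or 0.013 ± 0.053 (SD, n = 4). CCL2 and IL6 were above 0 on all arrays, by little, and IL1B was on both sides of 0.

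The 10 features of a gene scattered widely around these means. On 1 array the SD between the 10 features of CCL2 was 0.11 to 0.27, that of IL6 was 0.13 to 0.20 and that of IL1B was 0.099 to 0.14. For a mean of 10 features, the median of these SDs gives a standard error of 0.046, 0.045 and 0.036. The gene means differed between arrays by an SD of 0.062, 0.026 and 0.053. Features that may share a probe sequence are not independent, so this standard error covers spot noise only. Of the 30 features, 3 were above 0 on all 4 arrays, all of them CCL2, and 0 were below 0 on all 4. Over all 39 features of the 10 genes the counts were 5 and 0, against 3.45% and 3.30% of all features, and 28 had a mean above 0, against 49.3%. Individual CCL2 features averaged between -0.005 and 0.28, IL6 features between -0.028 and 0.15, and IL1B features between -0.043 and 0.093.

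The scatter of these 3 genes was in the upper part of the range on these arrays. Of 120 genes read by 10 features of 1 accession, the median gene had an SD between features of 0.087, with a range of 0.044 to 0.54. CCL2 (0.144), IL6 (0.143) and IL1B (0.114) ranked 17, 18 and 33 from the highest. Their dye coefficients were among the smallest in that set, ranking 9, 13 and 7 from the lowest by size, where the median size was 0.26. This pairing was not particular to them. By SD between features and dye coefficient, IL10 (0.160, 0.0285), IL4 (0.141, -0.022), IFNG (0.113, -0.003) and MMP1 (0.184, 0.0078) were alike. NOS3 (0.204, 0.34) and COL1A1 (0.150, 0.31) scattered as widely with larger coefficients. Channel intensities were not used here, so the part of signal strength in this was not tested.

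**Figure D3:**
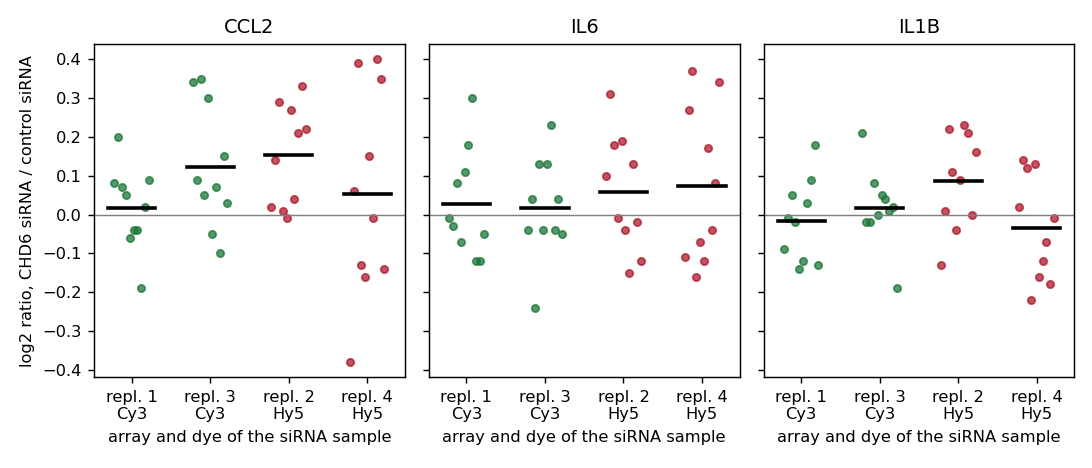
Log2 ratios of the 10 features of CCL2, IL6 and IL1B on each array (points, coloured by the dye of the siRNA sample) with the gene mean as a black bar. The features of CCL2 on replicate 4 run from -0.38 to 0.40 around a mean of 0.053.

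The dye coefficient, the mean with the siRNA RNA in Hy5 minus the mean over both orientations, was not used to choose the genes, except that CXCL3 was known to be steady. Of the other 9, limma called 1, CXCL8 (-0.33, adjusted p = 0.0106), against 44.8% of all genes (26.9% with a coefficient above 0). The 4 values of CXCL8 gave a mean of 0.39 with the siRNA RNA in Cy3 and -0.26 with it in Hy5. CXCL8 no longer passed in limma fits that left out replicate 2 (adjusted p = 0.0734) or replicate 3 (0.106), or that used no moderation (0.157). CCL20 (-0.17, adjusted p = 0.265) passed once replicate 4 was left out (-0.33, adjusted p = 0.0325), which leaves 1 array in that orientation. CXCL2 (-0.15), CCL5 (-0.13) and CXCL1 (-0.098) had limma adjusted p-values of 0.162, 0.172 and 0.300. CCL2, IL6, IL1B and CXCL10 had coefficients from -0.018 to 0.022 (adjusted p from 0.828 to 0.907). At the level of features, 2 of the 39 were called, CXCL8 and feature 206 of CXCL2 (adjusted p = 0.0204 and 0.00590), against 37.3% of all features.

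The typical size of the dye coefficient was 0.060 in the 10 genes (median) and 0.19 over all genes. The median SD over the arrays was 0.096 against 0.27. Both medians of the 10 genes include CXCL3, which had been noted for its steadiness. CCL2, IL6 and IL1B are means of 10 features, and genes were not matched for number of features. These differences are therefore a description. If each deposited column were Hy5 over Cy3, the dye coefficient would be the CHD6 siRNA difference. The 10 genes would then lie between -0.33 and 0.022 with a median of -0.058, and 6 would change sign. CXCL8 would be the 1 member called, in a fit that would call 44.8% of all genes, and the 1 member of 1 sign on all arrays, below 0, where 21.3% of all genes would be below and 31.3% above. CXCL3 would be at -0.019. Feature 27564 of CHD6 read -1.13, -1.21, -0.85 and -1.42 on replicates 1 to 4 as deposited. Turned by dye it would be at -0.16 (limma adjusted p = 0.195), and CHD6 features 1672 and 36130 at 0.015 and -0.14. CHD6 was used to choose the direction, so these values do not test it.

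**Figure D4:**
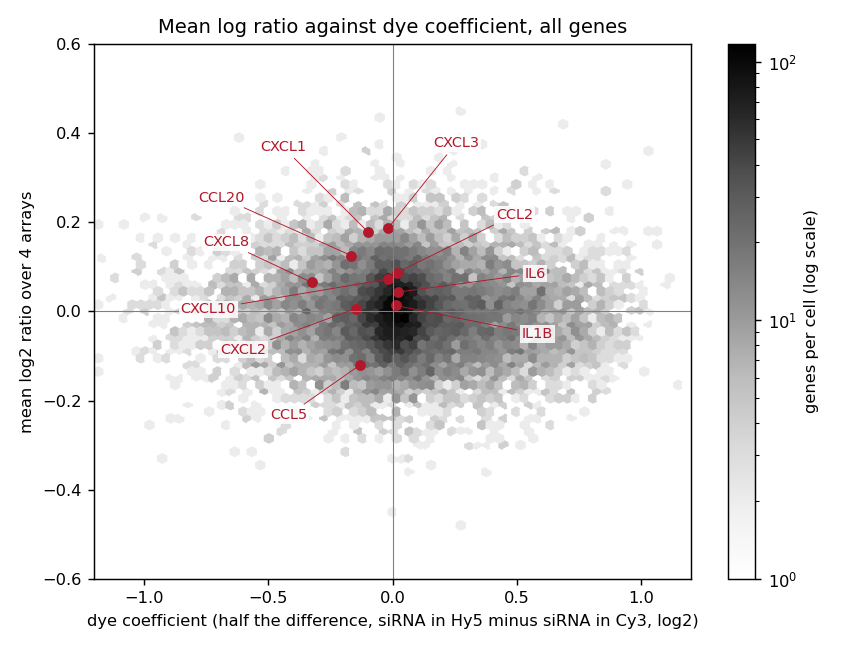
Mean log2 ratio over 4 arrays (vertical axis) against the dye coefficient (horizontal axis, log2) for all genes, shaded by the number of genes per cell, with the 10 chemokine and cytokine genes in red. 137 of 18334 genes fall outside the plotted range. CXCL10, CCL2, IL6, IL1B and CXCL3 sit near 0 on the horizontal axis and CXCL8 lies farthest to the left.

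The other genes of the pathway were taken from lists, in which limma called 0 genes in either direction (0.0218% called over all genes). Unadjusted p under 0.05 was reached by 8 higher and 2 lower genes of 160 measured, together 6.25%, against 9.37% of all genes. Other CXC chemokines (12 measured) had a median mean ratio of 0.045, with 0 of 1 sign on all arrays. The cluster neighbours CXCL6, PPBP, CXCL5, PF4 and PF4V1 had means of 0.12, 0.068, 0.045, 0.025 and -0.0075, named for their position and not by the naming rule. CXCL5 lay on both sides of 0, at 0.22, -0.16, 0.235 and -0.115. Other chemokines (23 measured) had a median of -0.013. CCL22, a ligand of CCR4, was the 1 of these above 0 on all arrays, at 0.28, 0.02, 0.26 and 0.30. Other inflammatory cytokines (22 measured) had a median of 0.0014. IL23A (0.24) and IL1A (0.026) were above 0 on all arrays, and IL12B (-0.16) and CSF3 (-0.095) below it. IL1A encodes the cytokine that shares its receptor with IL-1β, and its SD over the arrays was 0.021 against 0.053 for IL1B. IL1A was read by 10 features, with an SD between them of 0.11 within an array (median over the arrays). Spot noise thus enters both its mean and this comparison. TNF, read by 11 features and chosen after its value was seen, was at -0.032 ± 0.15 (SD, n = 4).

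Chemokine receptors (20 measured) had a median of 0.029. CCR4 (0.083) was above 0 on all arrays, and CCR1 (-0.11), a receptor of CCL5, and CCR2 (-0.073), that of CCL2, were below it. For the other receptors of the 10 ligands, named by role, CXCR1 was at 0.053, CXCR2 at 0.041, CXCR3 at -0.063 and CCR6 at 0.090. Receptors and signal carriers of IL-1 and IL-6 (18 measured) had a median of 0.014. IL1R1, the signalling receptor of IL-1, was above 0 on all arrays (0.12 ± 0.10, SD, n = 4), and the kinase IRAK2 below it (-0.11). The IL-6 receptor IL6R and its partner IL6ST had means of 0.048 and -0.028, with dye coefficients of 0.35 and -0.25 (limma adjusted p = 0.0230 and 0.0171).

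NF-kappaB subunits, kinases and inhibitors (13 measured) had a median of 0.0075. RELB, a subunit of the non-canonical pathway, was read by 1 feature, as were CCL22, IL23A, IL12B, CSF3, CCR4, IRAK2 and TNFRSF9. It was above 0 on all arrays, at 0.50, 0.42, 0.37 and 1.12 (mean 0.60, limma adjusted p = 0.175). It had the highest mean of the list in the direction used, whereas turned by dye it would be at 0.17, below IKBKG at 0.89 and NFKBIB at 0.82 (named after their values were seen). The median of this list followed the dye, at -0.18 and -0.16 with the siRNA RNA in Cy3 and 0.29 and 0.25 with it in Hy5. By median of gene means per orientation (Cy3, Hy5), other lists changed sign too. These were other NF-kappaB targets (-0.08, 0.10), other cytokines (-0.07, 0.040), other chemokines (-0.055, 0.04) and chemokine receptors (-0.0325, 0.04). IL-1 and IL-6 signalling (-0.035, 0.015) and immune markers (-0.02, 0.079) did as well. Other CXC chemokines (0.0975, 0), decay factors (0.0038, 0.0475) and endothelial and fibroblast markers (0.071, 0.026) did not. By median per array, however, other CXC chemokines were at 0.135 and 0.01 with the siRNA RNA in Cy3. With it in Hy5 they were at -0.06 and -0.0067. The per-array medians of decay factors and of endothelial and fibroblast markers did not change sign with the dye. On the dye coefficient 9 of 13 NF-kappaB subunit, kinase and inhibitor genes were called. The corresponding counts were 1 of 12 for other CXC chemokines, 5 of 23 for other chemokines and 4 of 22 for other cytokines, against 44.8% of all genes. They were 5 of 20 for chemokine receptors, 7 of 18 for IL-1 and IL-6 signalling, 10 of 21 for other NF-kappaB targets and 4 of 8 for decay factors. Immune cell markers had 2 of 13 and endothelial and fibroblast markers 1 of 10. Other NF-kappaB target genes (21 measured) had a median of 0.048. Above 0 on all arrays were TNFRSF9, a costimulatory receptor (0.33), and PTGS2, the inducible cyclooxygenase (0.20), and below it CFLAR, an inhibitor of caspase-8 (-0.14). PTGS2 read 0.33, 0.03, 0.42 and 0.0027 on replicates 1 to 4, so it was near 0 with the siRNA RNA in Hy5. CFLAR read -0.015, -0.055, -0.37 and -0.10, with replicate 3 farthest from 0. Proteins that control the decay of cytokine messages (8 measured) had a median of 0.065. Of these ELAVL1, which stabilises AU-rich messages, was below 0 on all arrays (-0.30, limma adjusted p = 0.270).

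Cell type markers were checked in the same way. Immune cell markers (13 measured) had a median of 0.045 and a range of -0.12 to 0.16. PTPRC, the pan-leucocyte marker CD45, was at 0.047 and LYZ at 0.050, both above 0 on all arrays. Endothelial and fibroblast markers (10 measured) had a median of 0.020. Ratios carry no level, so the identity of the cells was not checked against its markers, and none of the 10 genes was shown to be expressed above background.

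**Figure D5:**
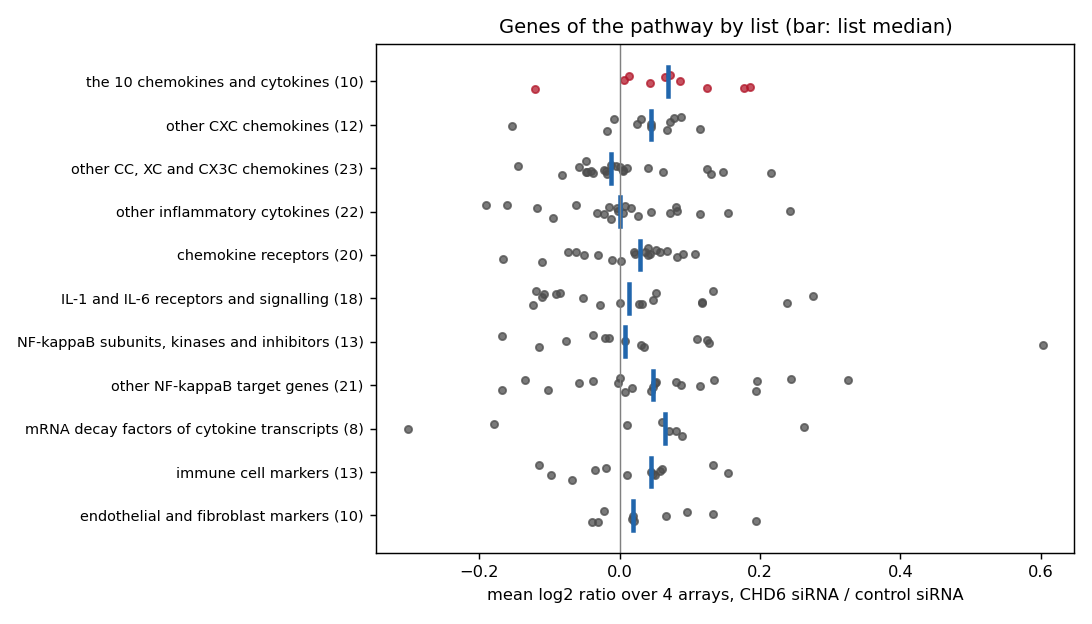
Mean log2 ratio over 4 arrays (horizontal axis) of every measured gene in each list, 1 point per gene, with the list median as a blue bar and the 10 chemokines and cytokines in red. In the direction used, list medians lie between -0.013 and 0.069 and RELB at 0.60, while turned by dye the medians would run from -0.068 to 0.23 and RELB would be at 0.17.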

How the data were processed

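The 4 samples are 2-colour Agilent arrays, each holding RNA of CHD6 siRNA and control siRNA cells. Per the labels' protocols, 200 ng of total RNA were amplified and labelled with cyanine CTP. The deposited values are log2 ratios (base assumed), 1 column per array and rounded to 2 decimals, with 0 missing values and 0 unused columns. How they were background corrected, normalized, centred and directed is not given in the sources used here. Column medians were -0.02 to 0.03 and SDs 0.44 to 0.51. Columns of the same orientation correlated at 0.79 to 0.80 across features, and opposite ones at -0.84 to -0.68 (features are not independent replicates). The columns were read as siRNA over control because the titles name the siRNA first and CHD6 was below 0. Signal over background is unknown. Precision is limited by there being 4 arrays.

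Of 45220 features, 31332 named 1 gene, 93 several and 13795 are unnamed here. Symbols were updated by Entrez identifier to RefSeq (31291 matched) and features averaged to 18334 genes. Genes were fitted with limma 3.58.1 in R 4.3.3 with an intercept, a dye coefficient and eBayes. P-values were adjusted by Benjamini-Hochberg across the 18334 genes (threshold 0.05). The fit was also run on simulated data drawn from its own fitted model, which cannot show whether that model suits these arrays. The 10 genes, the lists and the choice of the dye coefficient were made with earlier results of these data known. Genes were named by rule: the 10 members, CHD6, per list the 2 highest and 2 lowest of 1 sign on all arrays, and the 5 nearest to CXCL3. Receptors and others were named by role or after their values were seen. Promoters were searched with Python 3.11.15 and aligned with Biopython 1.88. Alternatives were the model, direction, averaging of features, centring, quantile normalization, moderation and leaving out each replicate.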

Additional observations from a re-analysis of the deposited data

Results flagged for a closer look

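Of 37 sets of 4 values (the 10 genes, CHD6, the list genes named by rule, the 5 genes nearest to CXCL3 and the features of CXCL2 and CXCL3), 4 held a single array that stood well away from the rest. Chance would give about 1.85 in unselected values, but most of these sets were chosen for their pattern over the 4 arrays, so that figure is no yardstick here. For CXCL3 that array was replicate 4, with 0.135 where the remaining arrays gave 0.20 to 0.21. Replicate 3 of CXCL10 read 0.12 and its other arrays 0.05 to 0.06. Replicate 2 was the array that differed for CCL22 (0.02, the rest 0.26 to 0.30) and for LYZ (0.10, the rest 0.03 to 0.04).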

How the results depend on the processing

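The median of the 10 mean ratios, 0.069, was 0.046 to 0.089 when 1 replicate was left out. It was 0.14 with the feature of largest mean per gene, 0.12 on the arrays with the siRNA RNA in Cy3 (0.040 on the others) and -0.058 with the arrays turned by dye. Centring, quantile normalization and the median over features left every member's sign as it was. CXCL3 was at 0.26 and 0.12 by its single features. Leaving out 1 replicate changed the sign of CXCL2, CXCL8 or IL1B at most, with values from -0.043 to 0.11, -0.09 to 0.21 and -0.011 to 0.029. With 1 replicate left out, the list medians ranged as follows: -0.10 to 0.14 for NF-kappaB subunits, -0.043 to 0.012 for other chemokines, -0.014 to 0.027 for other cytokines, 0.0033 to 0.040 for chemokine receptors, 0 to 0.068 for IL-1 and IL-6 signalling, -0.005 to 0.077 for other NF-kappaB targets, -0.0083 to 0.10 for decay factors, 0 to 0.047 for immune markers and 0.040 to 0.045 for endothelial and fibroblast markers. Other CXC chemokines stayed at 0.033 to 0.058. The 4 genes called for CHD6 siRNA became 8 with the median over features, 7 with median centring, 0 with the intercept alone, 9 features when every feature was fitted (chosen after seeing the data, like the single features of CXCL3), 8219 when turned by dye, and 0 to 0 without any 1 replicate. Of 9 members, 1 was called on the dye coefficient, 0 to 2 when 1 replicate was left out and 0 without moderation. Over all genes that coefficient was called for 8219, for 4656 to 6814 without 1 replicate and for 5 without moderation. With 3 arrays 1 array stands alone in its orientation and is assumed to vary like the others. The causes of these changes were not tested. Each ratio is already a difference within 1 array, so every fit is paired by array and no further block could be added.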
